A study of Mus musculus with 12 samples.

Results

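The immediate-early response genes Nr4a1, Fos, Fosb, Jun, Junb, Egr1, Egr2, Egr3, Atf3 and Ier2 were followed in Ter119+ erythroid cells with and without IKAROS. These 10 genes, chosen by name with earlier results of these data known, are part of the 38250 genes counted by RNA-seq. Cells of E14.5 (embryonic day) fetal livers from CD1 mice, either wild type for Ikaros (IkWT) or Ikaros null (IkNull), were co-cultured for 48 h on OP9 or OP9-DL1 stroma in medium with 2 U/mL of erythropoietin. There were 3 libraries in each of the groups IkWT/OP9, IkWT/OP9-DL1, IkNull/OP9 and IkNull/OP9-DL1. In the null allele the last translated exon of Ikzf1 is missing in all tissues of the embryo, so the non-erythroid cells of the liver lacked IKAROS too. OP9 is a bone marrow stromal line, and OP9-DL1 carries a constitutive Delta-like 1, a ligand of NOTCH receptors. The study's methods describe sorting on Ter119, a surface antigen of erythroid cells, whereas the labels describe passage through a 40 µm filter. The comparisons ask how IKAROS loss and NOTCH ligand exposure, alone and together, alter the erythroid transcriptome, and the 10 genes are described here within them.

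Immediate-early genes are transcribed within minutes of a stimulus, such as a growth factor, a cytokine, stress or the handling of cells, without new protein synthesis. Kinases of the MAPK and cyclic AMP pathways activate factors already bound at their promoters, among them the SRF and TCF proteins and CREB. The members encode transcription factors for the most part. FOS and FOSB pair with JUN and JUNB to form AP-1, ATF3 is a related bZIP factor of stress responses, EGR1, EGR2 and EGR3 are zinc finger factors, NR4A1 is an orphan nuclear receptor and IER2 is a nuclear protein of growth factor responses. Their transcripts are short-lived, so a level in a sorted population reflects the period shortly before lysis.

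Promoter windows of the members are shown because the stimuli named above act through short sequence elements close to the start of transcription. RefSeq windows of 300 bases on GRCm38.p6, from 250 bases before to 50 bases after a start, matched 7 of the 10 members. Egr1, Egr3 and Ier2 had none. The half-site of the cyclic AMP response element (CRE), TGACG on either strand, was present in windows of 6 of the 7 members (Nr4a1, Fos, Fosb, Junb, Egr2 and Atf3) and in those of 23.0% of 27025 genes (20.8% of all 32851 windows). Nr4a1 held 4 half-sites, from -233 to -36 relative to the start, and 0.231% of all windows held 4 or more. A CArG box, the recognition element of SRF, was searched in its strict form only. Among these windows it was found in those of Egr2, and in 1.63% of all windows. Elements outside the windows, and any of Egr1, Egr3 and Ier2, were not searched. In the lines below, capitals mark CRE half-sites and, in Egr2, the CArG box as well. The windows are those of Nr4a1 (chr15:101266596-101266895, plus strand), Junb (chr8:84978699-84978998, minus strand), Fos (chr12:85473640-85473939, plus strand), Fosb (chr7:19309996-19310295, minus strand) and, for 1 of 5 annotated starts, Egr2 (chr10:67537619-67537918, plus strand), each read 5′ to 3′.
Nr4a1: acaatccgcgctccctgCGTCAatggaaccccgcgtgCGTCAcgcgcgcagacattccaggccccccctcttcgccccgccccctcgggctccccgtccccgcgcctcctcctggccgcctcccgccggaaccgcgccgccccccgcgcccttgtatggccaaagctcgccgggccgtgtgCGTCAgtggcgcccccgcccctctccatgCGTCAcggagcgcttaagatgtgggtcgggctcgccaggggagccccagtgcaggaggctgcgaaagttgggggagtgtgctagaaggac
Junb: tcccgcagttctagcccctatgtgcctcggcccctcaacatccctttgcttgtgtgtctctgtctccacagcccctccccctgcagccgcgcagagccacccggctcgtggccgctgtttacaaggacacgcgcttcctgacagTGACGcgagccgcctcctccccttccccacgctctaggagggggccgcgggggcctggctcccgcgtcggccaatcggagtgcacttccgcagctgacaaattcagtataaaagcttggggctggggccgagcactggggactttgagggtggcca
Fos: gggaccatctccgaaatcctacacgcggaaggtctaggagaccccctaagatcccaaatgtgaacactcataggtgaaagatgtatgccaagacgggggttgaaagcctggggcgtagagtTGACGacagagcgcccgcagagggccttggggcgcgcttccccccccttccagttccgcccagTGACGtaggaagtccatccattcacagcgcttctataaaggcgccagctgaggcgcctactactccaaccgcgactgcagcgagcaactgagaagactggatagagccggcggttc
Fosb: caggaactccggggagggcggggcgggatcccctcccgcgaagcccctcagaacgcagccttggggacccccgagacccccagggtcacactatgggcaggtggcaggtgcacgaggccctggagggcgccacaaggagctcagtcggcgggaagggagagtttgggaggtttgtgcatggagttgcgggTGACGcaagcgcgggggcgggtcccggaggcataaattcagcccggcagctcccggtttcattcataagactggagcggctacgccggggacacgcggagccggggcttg
Egr2: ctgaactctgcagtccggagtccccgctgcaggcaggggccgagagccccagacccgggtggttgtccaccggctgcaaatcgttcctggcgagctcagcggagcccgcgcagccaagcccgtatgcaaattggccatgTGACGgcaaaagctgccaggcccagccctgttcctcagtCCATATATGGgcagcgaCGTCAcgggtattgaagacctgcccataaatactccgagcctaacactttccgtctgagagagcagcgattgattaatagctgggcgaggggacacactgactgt

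The full CRE (TGACGTCA, which contains the half-site) was in none of the members' windows and in 1.79% of all windows. An EGR site (GCGGGGGCG or GCGTGGGCG) was found in Nr4a1 and Fosb and in 3.47% of all windows, without overlap with a half-site. The AP-1 site (TGACTCA or TGAGTCA) was in none of the members' windows and in 5.20% of all, and TGGGAA, letters shared by IKAROS and RBPJ sites, was in that of Jun and in 25.6% of all. These matches are descriptions of the letters in these windows.

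Libraries held 19889576 to 31624477 counted reads, and the deposited values are counts divided by a size factor. Dll1, the ligand carried by OP9-DL1, reached at most 5.58 normalized counts on OP9 and 203 to 523 on OP9-DL1, in both genotypes. The part of RNA from OP9-DL1 cells in these counts was not tested. The count of Ikzf1 was 2424 to 2721 in IkWT libraries and 1721 to 2719 in IkNull libraries. It includes reads from the exons that the null allele keeps, so it does not check the deletion. Markers of erythroid cells such as Alas2 were abundant throughout, 13 listed markers summing to 2756280 normalized counts or more in every library. The 2 libraries of a genotype that share a replicate number, 1 per stroma, deviated together from their groups (correlations across genes of 0.58 to 0.83, against -0.70 to 0.20 for other numbers), and are called a pair below. There were 3 pairs of IkWT (numbers 1, 3 and 4) and 3 pairs of IkNull (numbers 1, 2 and 3), and the labels do not say whether a pair came from 1 embryo. The comparisons on 1 stroma take their spread from all 12 libraries as if independent, although the libraries of a pair are not. The comparison of averaged pairs and the fits on the 2 groups of 1 stroma count each preparation once. Both measure the spread between 3 preparations per genotype.

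Per kilobase of exon, Junb had the highest level of the 10 members, with a mean of 4731 ± 2102 normalized counts per kb (SD over 12 libraries), followed by Ier2 with 1692 ± 362. Fos came next with 948 ± 331 per kb, then Jun with 470 ± 145, Atf3 with 259 ± 78.4 and Egr1 with 164 ± 45.2. Fosb at 25.4 ± 13.6 and Nr4a1 at 21.8 ± 18.9 per kb were far lower and differed from each other by less than their SD. Egr2 at 5.59 ± 5.23 and Egr3 at 0.676 ± 0.584 per kb closed the order. Among 13634 tested genes with a known exon length, the mean of Junb exceeded 98.3% of genes, whereas that of Egr2 exceeded 14.7%. Egr3 did not reach 9.07 normalized counts in any library, did not pass the minimum mean of 5 and was not tested, which left 9 members in the tests.

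**Figure D1:**
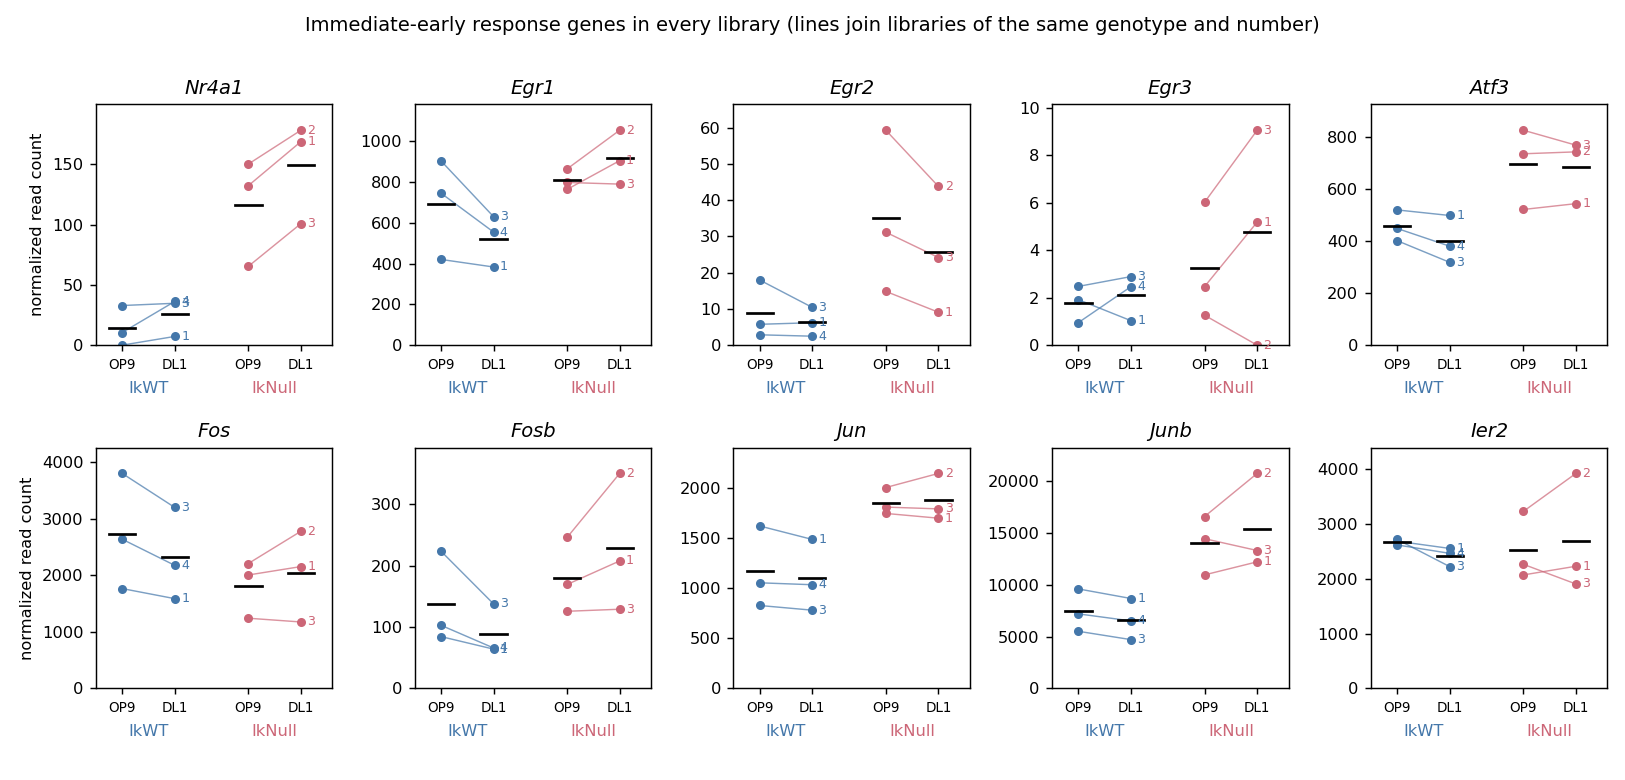
Normalized read counts (linear axes from 0) of the 10 members in all 12 libraries, by genotype and stroma. Points are libraries, numbers are replicate numbers, lines join libraries of the same genotype and number, and black bars are means of 3 libraries. Nr4a1, Jun, Junb and Atf3 of IkNull libraries lie above those of IkWT libraries on both stromas, and Egr1 does so on OP9-DL1 only. Fos, Fosb, Egr2, Egr3 and Ier2 overlap on both.

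Nr4a1 was called higher in IkNull cells on OP9 and Junb on OP9-DL1, whereas Fos, Fosb, Egr2, Egr3 and Ier2 overlapped between the genotypes on both stromas. On OP9, 1 of 9 members tested (Nr4a1) was called higher, against 6.69% of all 13769 genes tested, and 0 were called lower (2.83% of all genes). On OP9-DL1, 1 of 9 (Junb) was called higher, against 9.41% of all genes, and none lower, against 4.65%. A call needs a log2 fold change of 0.8 or more in either direction and a limma adjusted p below 0.05. The log2 fold changes of 7 of 9 members were above 0 on OP9 (median 0.59) and of 8 of 9 on OP9-DL1 (median 0.83), whereas over all genes the medians were 0.00 and 0.03. No member was called lower on either stroma, also with edgeR and DESeq2, and none passed an unadjusted p of 0.05 in that direction. Scaling to the same total per library lowered the medians over all genes to -0.22 and -0.26 and turned the calls over all genes on OP9 from 921 higher and 389 lower to 574 higher and 862 lower. The members' medians became 0.37 and 0.53, and the sign of Ier2 on OP9-DL1 turned from 0.08 to -0.21. With the mean of each pair as 1 value (3 against 3), no member was called by limma, beside 6.69% of all genes called higher and 2.69% lower. Nr4a1 (3.32 ± 0.86, limma adjusted p = 0.0505) and Junb (1.08 ± 0.29, 0.0584) had the smallest adjusted p. At an unadjusted p under 0.05, 5 of 9 members were higher and 0 lower, beside 17.7% and 12.7% of all genes. Without IkWT pair 1 this test called Nr4a1, Jun and Junb, without IkNull pair 1 it called Egr2, Junb and Atf3, and without IkWT pair 3 it called Nr4a1. The exact two-sided permutation test on a single member (3 against 3) cannot go below p = 0.1, which it gave for the 4 members whose groups did not overlap on OP9 (Nr4a1, Jun, Junb and Atf3) and the 5 on OP9-DL1 (the same with Egr1), all higher in IkNull, beside 17.1% of all genes on each stroma.

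**Figure D2:**
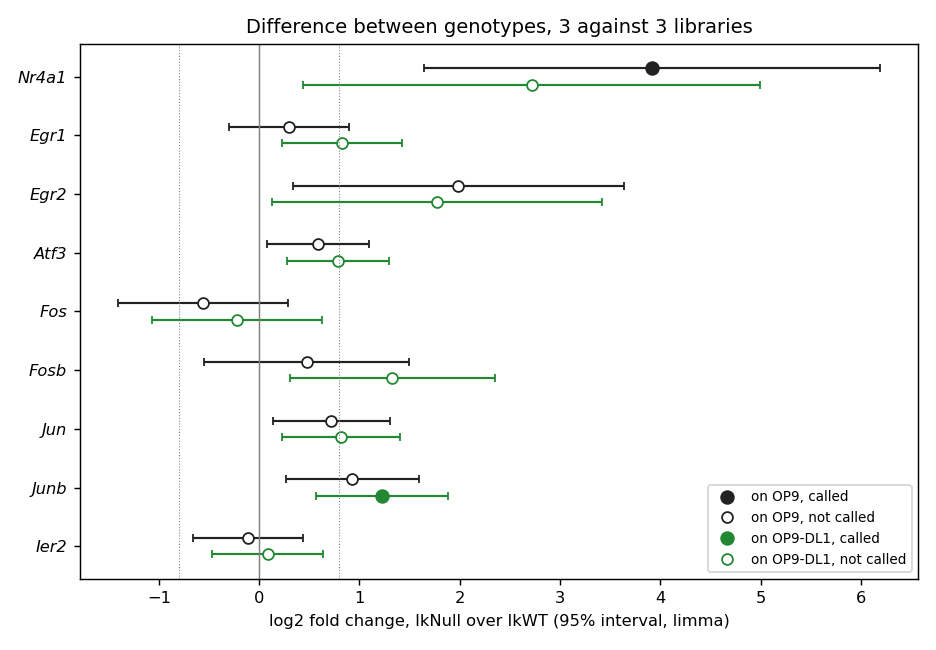
Log2 fold change of IkNull over IkWT for the 9 members tested, with 95% intervals of the limma fit, on OP9 (black) and OP9-DL1 (green). Filled points passed both thresholds, dotted lines mark a log2 fold change of 0.8 in either direction. Nr4a1 on OP9 (3.92) and Junb on OP9-DL1 (1.22) are filled, and the intervals of Fos and Ier2 include 0 on both stromas.

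Nr4a1 (chromosome 15, 101254269 to 101274795, GRCm38) encodes the NR4A1 receptor, which is induced by antigen receptor, cyclic AMP and stress signals. On OP9 it was at 0, 32.8 and 10.5 normalized counts in IkWT replicates 1, 3 and 4 and at 132, 150 and 65.3 in IkNull replicates 1, 2 and 3. On OP9-DL1 it was at 7.22, 34.7 and 36.2 in IkWT and at 169, 178 and 101 in IkNull. Every IkNull library exceeded every IkWT library, and the lowest IkWT values were those of replicate 1 on both stromas. The 0 stands for no read, which allows up to 3 reads or 2.88 normalized counts.

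The rise of Nr4a1 on OP9 was 3.92 ± 1.04 on the log2 scale of normalized count + 1 (SE, limma adjusted p = 0.0349). On OP9-DL1 the difference was 2.72 ± 1.04 (limma adjusted p = 0.0919) and was not called. The call on OP9 was lost without IkWT/OP9 replicate 1 (2.48, adjusted p = 0.0660) or 4 (4.24, 0.0709) and without IkNull/OP9 replicate 1 (3.78, 0.0632), 2 (3.69, 0.133) or 3 (4.28, 0.0620). It was lost as well with edgeR on the recovered reads (2.91, adjusted p = 0.0540), with every library scaled to the same total (3.62, 0.0551) and in a fit on the 2 groups alone (0.0724), whereas on OP9-DL1 Nr4a1 was called without IkWT/OP9 replicate 1 (adjusted p = 0.0168), with a pseudocount of 5 (2.46, 0.0314), in the 2-group fit (0.0323) and with DESeq2 (2.51, 0.0130). Over 29 alternatives the log2 fold change lay between 2.48 and 5.02 on OP9 and between 2.00 and 3.09 on OP9-DL1, and the adjusted p between 0.00382 and 0.157 and between 0.0130 and 0.293.

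Egr1 (chromosome 18, 34859823 to 34864984), the EGR family member with the highest level here, was at 421, 905 and 746 normalized counts on OP9 in IkWT replicates 1, 3 and 4 and at 765, 865 and 799 in IkNull replicates 1, 2 and 3. Its counts on OP9-DL1 were 384, 631 and 555 in IkWT and 906, 1055 and 791 in IkNull. The groups overlapped on OP9 and were apart on OP9-DL1. The log2 fold change was 0.30 ± 0.27 on OP9 and 0.83 ± 0.27 on OP9-DL1 (limma adjusted p = 0.493 and 0.0574), and the difference between these changes was 0.53 ± 0.39 (interaction, adjusted p = 1.00). Egr1 was called on OP9-DL1 without IkWT/OP9 replicate 1 (adjusted p = 0.0213) or 3 (0.0488), and over 29 alternatives the adjusted p ranged from 0.0213 to 0.388 there. On OP9 the log2 fold change was -0.02 without IkWT/OP9 replicate 1 and 0.53 without replicate 3, so its sign rested on 1 library.

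Egr2 (chromosome 10, 67535475 to 67542188), known from myelin formation and from lymphocyte anergy, was low. On OP9 it was at 5.75, 17.97 and 2.86 normalized counts in IkWT replicates 1, 3 and 4 and at 14.8, 59.3 and 31.1 in IkNull replicates 1, 2 and 3. On OP9-DL1 the values were 6.19, 10.4 and 2.47 in IkWT and 9.08, 43.8 and 24.2 in IkNull. IkNull replicate 1 lay within the IkWT range on both stromas. The log2 fold changes were 1.99 ± 0.75 and 1.77 ± 0.75 (limma adjusted p = 0.110 and 0.121). Without IkNull/OP9-DL1 replicate 1 Egr2 was called on OP9-DL1 (2.35, adjusted p = 0.0466, with 0.0375 to 0.389 over 28 alternatives). Egr3 (chromosome 14, 70077203 to 70082614) had means of 1.78 ± 0.77, 2.13 ± 0.98, 3.25 ± 2.48 and 4.75 ± 4.55 normalized counts (SD, n = 3) in IkWT/OP9, IkWT/OP9-DL1, IkNull/OP9 and IkNull/OP9-DL1, where a difference was not detectable at this depth.

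Junb (chromosome 8, 84974484 to 84978718) encodes an AP-1 subunit that often opposes JUN in growth control. On OP9 it was at 9612, 5516 and 7199 normalized counts in IkWT replicates 1, 3 and 4 and at 10973, 16614.5 and 14469.5 in IkNull replicates 1, 2 and 3. On OP9-DL1 it was at 8686, 4711 and 6521 in IkWT and at 12232, 20781 and 13328 in IkNull. The lowest IkNull library lay above the highest IkWT library. Junb rose by 1.22 ± 0.30 on the log2 scale on OP9-DL1 (limma adjusted p = 0.0202), and the difference on OP9 was 0.93 ± 0.30 (adjusted p = 0.0700). The call on OP9-DL1 was lost without IkWT/OP9-DL1 replicate 3 (1.00, adjusted p = 0.0625) or 4 (1.23, 0.0609), without IkNull/OP9-DL1 replicate 2 (0.99, 0.0969) and in a fit on these 2 groups alone (adjusted p = 0.0517). It held in 21 of 29 alternatives, with log2 fold changes of 0.93 to 1.44 and adjusted p of 0.00157 to 0.117.

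Jun (chromosome 4, 95049034 to 95052222), the founding JUN subunit, was at 1618, 826 and 1052 normalized counts on OP9 in IkWT replicates 1, 3 and 4 and at 1743, 2002 and 1807 in IkNull replicates 1, 2 and 3. Its counts on OP9-DL1 were 1484, 779 and 1033 in IkWT and 1696, 2142 and 1789 in IkNull. The groups did not overlap, and IkWT replicate 1 lay close to the IkNull libraries. The log2 fold changes were 0.72 ± 0.27 and 0.81 ± 0.27 (limma adjusted p = 0.103 and 0.0570) and were not called. Without IkWT/OP9 replicate 1 Jun was called on OP9 (0.99, adjusted p = 0.0472) and on OP9-DL1 (0.81, 0.0331), without IkWT/OP9-DL1 replicate 1 on OP9-DL1 (1.06, 0.0344) and without IkWT/OP9 replicate 3 likewise (adjusted p = 0.0493). Over 29 alternatives the adjusted p was 0.0159 to 0.287 on OP9 and 0.0101 to 0.234 on OP9-DL1.

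Atf3 (chromosome 1, 191170296 to 191218039), a stress-induced bZIP factor, was at 520, 401 and 448 normalized counts on OP9 in IkWT replicates 1, 3 and 4 and at 521, 735 and 826 in IkNull replicates 1, 2 and 3. On OP9-DL1 it was at 498, 318 and 380 in IkWT and at 544, 743 and 769 in IkNull. The groups did not overlap on either stroma, by a margin of less than 2 counts on OP9. On OP9-DL1 the log2 fold change of 0.79 ± 0.23 passed the adjusted p (0.0396, limma) and fell just under the fold threshold of 0.8. On OP9 it was 0.59 ± 0.23 (limma adjusted p = 0.122). Without replicate 1 of IkWT/OP9-DL1 (0.96, adjusted p = 0.0362) or of IkNull/OP9-DL1 (0.94, 0.0193) Atf3 passed both thresholds, and the adjusted p was 0.00959 to 0.202 over 29 alternatives.

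Fos (chromosome 12, 85473890 to 85477273), an AP-1 subunit widely used as a readout of acute signals, was at 1767, 3806 and 2641 normalized counts on OP9 in IkWT replicates 1, 3 and 4 and at 2008, 2211 and 1242 in IkNull replicates 1, 2 and 3. Its counts on OP9-DL1 were 1589, 3204 and 2178 in IkWT and 2157, 2782 and 1175 in IkNull. The groups overlapped on both stromas. The log2 fold changes were -0.56 ± 0.39 and -0.22 ± 0.39 (limma adjusted p = 0.356 and 0.722), with 95% intervals of -1.41 to 0.28 and -1.06 to 0.63.

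Fosb (chromosome 7, 19302696 to 19310051), a FOS relative, was at 84.4, 224 and 103 normalized counts on OP9 in IkWT replicates 1, 3 and 4 and at 169, 246 and 126 in IkNull replicates 1, 2 and 3. On OP9-DL1 it was at 64.0, 138 and 65.8 in IkWT and at 208, 350 and 129 in IkNull. IkWT replicate 3 and IkNull replicate 3 kept the genotypes overlapping. The log2 fold changes were 0.47 ± 0.47 and 1.33 ± 0.47 (limma adjusted p = 0.527 and 0.0709). Without IkWT/OP9-DL1 replicate 3 Fosb was called on OP9-DL1 (1.69, adjusted p = 0.0483), and DESeq2 called it there with all libraries (1.36, 0.0300). The adjusted p on OP9-DL1 was 0.0300 to 0.290 over 29 alternatives.

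Ier2 (chromosome 8, 84661331 to 84662852), which encodes a nuclear protein induced by growth factors, was at 2688, 2720 and 2620 normalized counts on OP9 in IkWT replicates 1, 3 and 4 and at 2072, 3233 and 2267 in IkNull replicates 1, 2 and 3. Its counts on OP9-DL1 were 2556, 2224 and 2466 in IkWT and 2231, 3927 and 1907 in IkNull. IkWT libraries were tightly grouped, with an SD of 1.91% of the mean on OP9 and 7.12% on OP9-DL1, and IkNull libraries spread on both sides of them, with 24.6% and 40.4%. The log2 fold changes were -0.11 ± 0.25 and 0.08 ± 0.25 (limma adjusted p = 0.798 and 0.842), with 95% intervals of -0.66 to 0.44 and -0.47 to 0.64.

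The balance among the AP-1 members was read within libraries. The ratio of Fosb to Fos per kilobase was 0.0114 to 0.0221 in IkWT libraries and 0.0318 to 0.0474 in IkNull libraries, without overlap. The ratio of Fos to Jun was 1.45 to 6.25 in IkWT and 0.891 to 1.76 in IkNull libraries and overlapped, as did that of Fos to Junb. Fos made up 13.7% to 37.5% of the summed per-kilobase level of Fos, Fosb, Jun and Junb in IkWT libraries. In IkNull libraries its share was 7.13% to 13.8%, with overlap at the edge. The share of Junb was 55.6% to 76.7% in IkWT and 77.0% to 84.9% in IkNull. Jund, a JUN relative that is not a member, was left out of the sum. Its mean over 12 libraries was 12059 normalized counts, beside 10887 for Junb, so the shares are not those of all AP-1 transcripts. The ratio of Junb to Jun lay between 8.11 and 9.48 in IkWT and between 8.72 and 13.4 in IkNull and overlapped. The ratios describe these libraries, and no test was made of them. The share of other gene pairs whose ratios do not overlap between the genotypes was not computed.

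Between OP9-DL1 and OP9, no member passed the thresholds in the fit on all groups. In IkWT cells, 0 of 9 members were called by limma, beside 0.00726% of all genes called higher (Dll1 itself) and 0% lower, and no member passed an unadjusted p of 0.05. In IkNull cells, 0 of 9 were called, beside 0.0145% of all genes higher and 0% lower, and again none passed an unadjusted p of 0.05. edgeR and DESeq2 called no member in either genotype. The interaction of genotype and stroma gave 0 calls among the members and among all genes with limma, edgeR and DESeq2. With limma, 47 positive and 12 negative genes passed an unadjusted p of 0.05, and no member was among them. The mean sum of 14 OP9-like stromal markers was 1042 on OP9 and 2154 on OP9-DL1 in IkWT, and 1370 and 3194 in IkNull. All 10 neutrophil markers were lower on OP9-DL1 in both genotypes (median log2 fold changes -0.74 and -0.76). All 10 hepatocyte markers were lower in IkWT (-0.85), and 8 of 10 were higher in IkNull (0.07). None of these markers was called. The part of such cells in the stroma comparisons was not tested.

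Since the libraries of a pair deviated together, the change from OP9 to OP9-DL1 was read within pairs. With the pair as a block, Nr4a1 was called higher in IkWT cells on OP9-DL1 (1.60 on the log2 scale, limma adjusted p = 0.0474), beside 0.45% of all genes called higher under that block and 1.02% lower. The counts went from 0 to 7.22, 32.8 to 34.7 and 10.5 to 36.2 in pairs 1, 3 and 4, which are changes of 3.04, 0.08 and 1.70, so pair 1 with its 0 reads weighs most. Without the block, leaving out 1 library gave 0.17 to 2.71. No other call on a member changed. In IkNull cells, Nr4a1 was higher on OP9-DL1 in 3 of 3 pairs, from 132 to 169, 150 to 178 and 65.3 to 101, with a log2 fold change of 0.40 ± 1.04 without the block. In IkWT cells, Fos, Fosb, Jun, Junb, Egr1, Atf3 and Ier2 were lower on OP9-DL1 in 3 of 3 pairs, with log2 fold changes between -0.58 (Fosb) and -0.08 (Jun). Ier2 was the 1 member whose stroma groups did not overlap, with 2224 to 2556 on OP9-DL1 below 2620 to 2720 on OP9 in IkWT cells (exact permutation p = 0.1, the smallest possible), beside 2.51% of all genes. In IkNull cells, Fos, Junb, Egr1, Atf3 and Ier2 were higher in 2 of 3 pairs, Jun in 1 of 3 and Fosb in 3 of 3, whereas Egr2 was lower in 3 of 3. The share of all genes tested that moved alike in 3 of 3 pairs was not computed. Without that share, the counts of pairs do not set the members apart from other genes. With the pair as a block, 1237 of 13769 genes were lower and 812 higher in IkWT cells at an unadjusted limma p under 0.05.

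Differences between pairs of one genotype were larger than those between stromas. For all 9 members tested the mean absolute log2 difference between pairs of a genotype exceeded that between the stromas of a pair, as it did for 83.2% of all genes tested. For Fos the values were 0.70 and 0.20, for Jun 0.41 and 0.06, and for Junb 0.51 and 0.19. The difference between genotypes exceeded that between pairs for 7 of 9 members, the exceptions being Fos and Ier2, beside 54.1% of all genes.

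Within groups, Fos, Fosb, Egr1 and Nr4a1 deviated together, as did Jun, Junb and Atf3, and in IkWT cells these sets ran against each other. In IkWT cells, replicate 3 had the highest and replicate 1 the lowest Fos, Fosb and Egr1 on both stromas, while replicate 1 had the highest and replicate 3 the lowest Jun, Junb and Atf3. After removal of group means, correlations over 12 libraries (6 pairs) were 0.67 to 0.95 among Fos, Fosb, Egr1 and Nr4a1, 0.71 to 0.90 among Jun, Junb and Atf3, and -0.82 to -0.23 between the sets. Egr2 and Ier2 were in neither set. Ier2 correlated at 0.67 with Junb and 0.54 with Fosb, and Egr2 at 0.64 with Fosb and -0.10 with Jun. These sets were formed after the values were seen, the libraries share 6 preparations and size factors, and no test was made. In IkNull cells, replicate 2 had the highest values of Nr4a1, Fos, Fosb, Egr1, Egr2, Jun, Junb and Ier2 on both stromas, so the opposite order was that of IkWT cells. Sums of marker genes differed between replicates too. The summed level of 10 neutrophil markers on OP9 was 9681, 52092 and 22420 in IkWT replicates 1, 3 and 4 and 41086, 89575 and 81589 in IkNull replicates 1, 2 and 3. On OP9-DL1 it was 6512, 29382 and 17305 in IkWT and 23382, 86513 and 45878 in IkNull. Replicate 3 had the lowest Fos, Fosb and Nr4a1 of IkNull cells on both stromas. The summed level of 13 erythroid markers on OP9 was 5241250, 2825010 and 3171610 in IkWT and 6019610, 5897150 and 4126810 in IkNull. The globin genes Hbb-b1 and Hba-a1 make up most of this sum, with means of 2808440 and 805917 over 12 libraries. By gene, 8 of the 13 erythroid markers were below 0 in IkNull against IkWT on each stroma (median log2 fold changes -0.40 and -0.34). The part of the marked cell types in the members' levels was not tested.

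**Figure D3:**
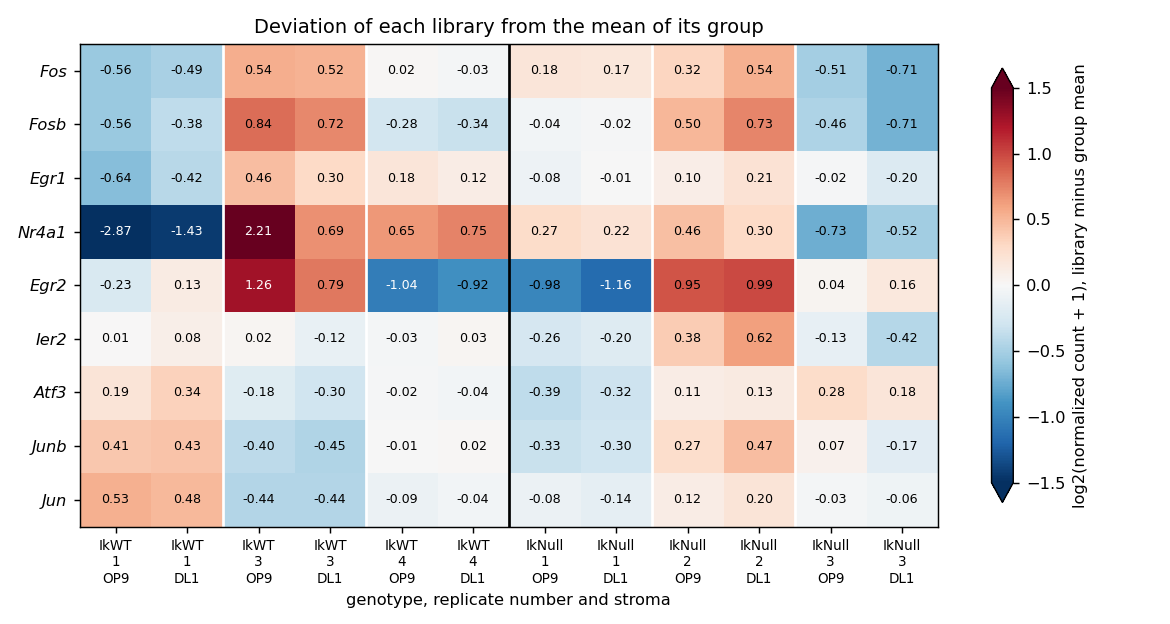
Deviation of each library from the mean of its group on the scale of log2(normalized count + 1), for the 9 members tested (rows) in 12 libraries (columns, by genotype, replicate number and stroma). Red is above and blue below the group mean. In IkWT replicate 1, Fos is at -0.56 and -0.49 and Jun at 0.53 and 0.48, and in replicate 3 these signs are turned.

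The genes whose pattern over the 12 libraries was most like the mean standardised level of the 9 members were Cap1 (r = 0.95), Nsmf (r = 0.95), Ncoa3 (r = 0.95), Ptplad2 (r = 0.94) and Slco2b1 (r = 0.94), among 9953 genes with a mean of at least 50. Cap1 encodes an actin-regulating protein, and its means were 1511 and 1274 normalized counts in IkWT/OP9 and IkWT/OP9-DL1 and 2413 and 2310 in IkNull/OP9 and IkNull/OP9-DL1. Ncoa3, a coactivator of nuclear receptors, was at 296 and 213 in IkWT and at 505 and 456 in IkNull. The correlations are descriptions over libraries that share preparations and a genotype difference.

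Other genes of the rapid response were called in both directions. Of 35 other immediate-early and rapid-response genes tested, limma called 7 higher and 1 lower on OP9 (median log2 fold change 0.64), and on OP9-DL1 it called 14 higher and 2 lower (median 0.91). Csrnp1, a nuclear protein induced by AXIN and cytokine signals, had the smallest adjusted p of the list, with means of 60.6 ± 7.0 in IkWT/OP9 and 691 ± 186 in IkNull/OP9 (SD, n = 3, log2 fold change 3.46 ± 0.29, limma adjusted p = 4.9e-05). Zfp36l1, an mRNA-destabilising zinc finger protein, rose from 587 ± 9.6 to 1480 ± 331 on OP9 (1.31 ± 0.24) and by 1.54 ± 0.24 on OP9-DL1 (limma adjusted p = 0.00545 and 0.00174). Gadd45b, a stress-response gene, and Ier3, an early gene of NF-kappaB and growth factor signals, rose on both stromas as well, by 1.63 and 1.04 on OP9 and by 1.93 and 1.51 on OP9-DL1. Klf10, a TGF-beta-inducible repressor, fell by 0.99 ± 0.18 on OP9 and 1.04 ± 0.18 on OP9-DL1 (limma adjusted p = 0.00530 and 0.00319).

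Among 4 tested EGR and NR4A relatives, Nr4a2 was called higher on OP9 and Nr4a2 and Nr4a3 on OP9-DL1, and all 4 were above 0 on both stromas. Nr4a2, a nuclear receptor of the same family, rose from 11.6 ± 5.0 normalized counts in IkWT/OP9 to 176 ± 111 in IkNull/OP9 (3.62 ± 0.66, limma adjusted p = 0.00607), and by 4.21 ± 0.66 on OP9-DL1 (0.00211). Of 14 other AP-1 family genes tested (identifiers), 3 were called higher on each stroma and 0 lower (0 with edgeR and DESeq2, 1 on each stroma at an unadjusted p under 0.05). Among them were Batf2 (2.76 and 2.32), known as an interferon-induced gene, and Fosl2 (1.92 and 2.19), a FOS relative. The medians of that list were 0.05 and 0.47.

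Of 12 MAPK feedback inhibitors tested, Errfi1, an inhibitor of EGF receptor signalling, was called higher on both stromas (2.12 ± 0.27 and 2.81 ± 0.27), and limma, edgeR and DESeq2 called 0 lower, with 0 lower at an unadjusted p under 0.05. Of 18 upstream factors of the SRF, TCF and CREB groups, Mapkapk2, a kinase downstream of p38, was called on both stromas (1.08 and 1.11) and Crem, a cyclic AMP response factor, on OP9-DL1 (2.18 ± 0.68, limma adjusted p = 0.0473), with list medians of 0.07 and -0.02. Of 14 heat shock genes limma called Bag3, a co-chaperone, higher on both stromas (1.02 and 1.21), and DESeq2 called 1 gene lower on OP9 as well, with medians of -0.25 and 0.01. Of 13 genes of the integrated stress response, in which ATF4 and ATF3 act, 3 rose on each stroma (Stc2, Ddit4 and Vldlr), while 3 fell on OP9 and 4 on OP9-DL1. Nupr1, a stress-induced chromatin protein, was at 2219 ± 741 in IkWT/OP9 and 408 ± 112 in IkNull/OP9 and fell by 2.42 ± 0.35 there (limma adjusted p = 0.00143). The others called lower were Sesn2, Chac1 and, on OP9-DL1, Ddit3, named after their values were seen. Ddit3 was at -1.42 on OP9 (limma adjusted p = 0.0551) and -1.48 on OP9-DL1, and edgeR and DESeq2 called 4 genes of the list lower on each stroma. Of 16 interferon-stimulated genes, 5 were called higher with OP9 and 10 with OP9-DL1 stroma (15 on each with DESeq2), among them Mx2, Gbp3 and the transcription factor Irf1. Their summed level was 44371 and 56965 in IkNull replicate 1, close to the 37529 to 66907 of IkWT libraries, and 297647 to 707076 in IkNull replicates 2 and 3. Within IkNull cells, Jun, Junb, Atf3 and Egr2 were also lowest in replicate 1 on both stromas. Nr4a1, Fos and Fosb were lowest in replicate 3, and Egr1 and Ier2 in replicate 1 on OP9 and in replicate 3 on OP9-DL1. The part of an interferon response in the members' levels was not tested.

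**Figure D4:**
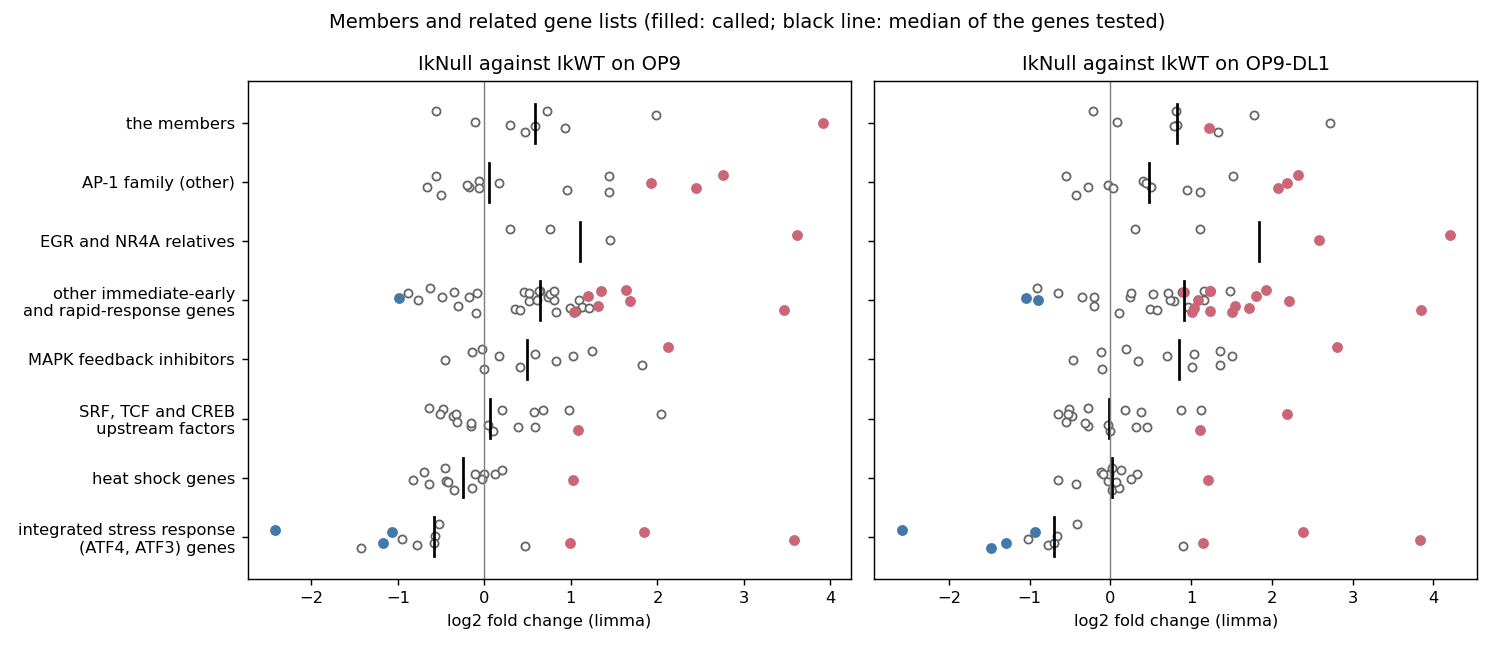
Log2 fold change of IkNull over IkWT for the members and 7 related lists, on OP9 (left) and OP9-DL1 (right). Each point is a gene tested, filled points were called (red higher, blue lower), and black lines are medians. The medians of the members are 0.59 and 0.83, and those of the other immediate-early and rapid-response genes 0.64 and 0.91.

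Markers of megakaryocytes and endothelial cells were also higher in IkNull libraries, and in bulk RNA more cells of a type and more RNA per cell cannot be told apart. Of 12 megakaryocyte markers tested, 9 were called higher on OP9 and 10 on OP9-DL1, Itgb3 and Pf4 among them, and their sum was 1124 to 2059 normalized counts in IkWT and 4395 to 11860.5 in IkNull libraries. Of 9 endothelial markers tested 6 were called higher on each stroma, Kdr and Cdh5 among them (sums of 207 to 300 and 1516 to 2449), with Emcn at 0 in 8 libraries. Of 13 macrophage markers tested, limma called 3 on OP9 (2 higher) and 5 on OP9-DL1 (4 higher) (sums of 2029 to 11691 and 7345 to 25646), with Cd163 at 0 in 8 libraries. Of 10 neutrophil markers, all above 0, limma and edgeR called 0 on either stroma, 4 and 5 passed an unadjusted p of 0.05, and DESeq2 called 1 and 4 (sums of 6512 to 52092 and 23382 to 89575). Of 8 mast cell and basophil markers tested, limma called 0 on OP9, where 3 passed an unadjusted p of 0.05 and edgeR called 0 and DESeq2 2, and 2 on OP9-DL1 (sums of 135 to 1431 and 1143 to 2906), with Fcer1a at 0 in 6 libraries. Of 4 lymphoid markers tested, limma called 0 on OP9 (1 at an unadjusted p under 0.05, 0 by edgeR, 1 by DESeq2) and Il7r on OP9-DL1 (sums of 58.4 to 162 and 75.3 to 384), and Cd3e was at 0 in all 12 libraries. Of 13 stromal markers limma called 0 on OP9 (5 at an unadjusted p under 0.05, 0 by edgeR, 5 by DESeq2) and Postn on OP9-DL1 (sums of 945 to 2489 and 1134 to 4058). Of 10 hepatocyte markers limma called 0 on OP9 (2 lower at an unadjusted p under 0.05, 0 by edgeR and DESeq2) and Trf on OP9-DL1. Of 13 erythroid markers limma called 0 on either stroma, 2 and 3 were lower at an unadjusted p under 0.05, edgeR called 0, and DESeq2 called 0 on OP9 and 2 on OP9-DL1, in opposite directions. Members such as Nr4a1, Junb, Egr1 and Fos are expressed in several of these cell types, and the part of such cells in the members' differences was not tested.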

How the data were processed

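RNA-seq of 12 libraries (4 groups of 3) was used as deposited by the authors, as a signal: htseq counts per gene over the size factor of the library (by median ratios). Reads had been aligned to GRCm38 without trimming, and the submitters' processing notes list TopHat2 2.0.9, HTSeq 0.5.3, DESeq2 1.0.19 and CASAVA 1.8. For the annotation release and the strand setting, nothing is given in the sources used here, so reads of overlapping genes may be shared. Further deposited tables hold the authors' own fold changes and p-values and were not used. Totals of 19889576 to 31624477 reads were recovered from the steps of the values. In all libraries 100% of values came out whole within 0.01, although the steps of IkNull replicate 3 lie so close to 1 that they give a weaker check.

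Genes averaging 5 or more normalized counts were tested with limma 3.58.1 (R 4.3.3, eBayes with trend) on log2(normalized count + 1), in 1 fit of 4 group means. Fold changes are on that scale, which understates those of low genes. Calls required a log2 fold change of 0.8 or more in either direction and a p under 0.05 after Benjamini-Hochberg adjustment over all tested genes, the study's thresholds. Pairs were also averaged and compared as 3 against 3. edgeR 4.0.16 (quasi-likelihood) and DESeq2 1.42.0 were run on the recovered reads as alternatives, beside other pseudocounts, filters, scalings, left-out libraries and pairs, 2-group fits and blocks. On simulated data for the OP9 comparison (13769 genes), limma recovered 88% of 100 genes changed by a log2 of 1 and 100% of 100 changed by 2. The simulated libraries were independent and shared 1 dispersion over all genes, and no gene as low as Egr2 was changed. In the data, paired libraries deviated together, and the SD in IkWT/OP9 ran from 1.91% of the mean for Ier2 to 116% for Nr4a1. The recovered shares check the code and do not give the power for the members.

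Libraries of a genotype that share a number deviated together (r = 0.58 to 0.83 across genes for all 6 pairs), so stroma comparisons were also fitted with the pair as a block. Exon lengths came from GENCODE vM21, which held 36345 of 38250 identifiers, and 294 genes share a symbol with another. Besides the members, the text names up to 4 called genes of each list with the smallest adjusted p per comparison, defining markers, Ikzf1, Dll1, and the 5 genes most correlated with the members' mean standardised level. The members and lists were chosen with earlier results of these data known.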

Additional observations from a re-analysis of the deposited data

Results flagged for a closer look

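Fosb, which encodes a FOS relative, was picked from all members because its counts changed in opposite directions with the stroma in the 2 genotypes. From OP9 to OP9-DL1 it went from 84.4 to 64.0, 224 to 138 and 103 to 65.8 normalized counts in IkWT pairs 1, 3 and 4, down in 3 of 3, and from 169 to 208, 246 to 350 and 126 to 129 in IkNull pairs 1, 2 and 3, up in 3 of 3. The step in IkNull pair 3 was only 0.04 on the log2 scale. The share of all genes with such opposite signs was not computed. Without that share, the signs do not set Fosb apart from other genes. The difference between the stroma changes of the 2 genotypes was tested as the interaction of genotype and stroma. It was 0.85 ± 0.66 on the log2 scale (unadjusted p = 0.221, limma adjusted p = 1.00) and did not pass. That fit takes the libraries of a pair as independent. Over 28 alternatives with limma, edgeR or DESeq2, among them the pair as a block, the lowest adjusted p of the interaction was 0.173. For the change in IkWT cells alone the lowest over 29 alternatives was 0.0371. Fosb was called in 0 of them in either comparison.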

How the results depend on the processing

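The calls on Nr4a1 (OP9) and Junb (OP9-DL1) held in 16 and 21 of 29 alternatives each. Of 1416 member values recomputed, most of them not called in the report, 1352 stayed on their side of the thresholds, 43 gained a call and 21 lost it, and no called value changed sign. The sign of 56 values turned, 16 of them among 645 in the genotype comparisons. Members called higher on OP9 (1 in the report) numbered 0 with the same total per library, with only the 2 groups compared and with edgeR on recovered reads, 2 with the replicate block and 2 with DESeq2. On OP9-DL1 (1 in the report) they numbered 2 with a pseudocount of 5, 2 with TMM scaling, 2 with the replicate block and 4 with DESeq2. The genotypes share numbers 1 and 3, and libraries of a shared number correlated across genotypes at 0.20 to 0.48, against -0.43 to 0.24 for other numbers. The study compared littermates, but whether a number marks a litter is not given in the sources, so this block stayed an alternative. Number 2 occurs only in IkNull and number 4 only in IkWT. Under the block these libraries add only to the stroma difference, and the genotypes are compared through numbers 1 and 3. With pairs averaged, little is then left to estimate the spread from. The block called Egr2 on OP9 (1.01, limma adjusted p = 0.0386), Egr1 on OP9-DL1 (0.83, 0.0323) and, with pairs averaged, Nr4a1 (3.48, 0.0157). With the pair as replicate block, 1 member (Nr4a1) was called higher on OP9-DL1 in IkWT cells against 0 without it, and the block changed no other stroma or interaction call. With pairs averaged (0 in the report), 1 was called with a pseudocount of 5, 1 with the same total, 1 with the same total without globin genes and 1 with the replicate block. Leaving out 1 library or 1 pair gave 0 to 3 members called higher on OP9, 0 to 4 on OP9-DL1 and 0 to 3 with pairs averaged, against 0 to 0 in the stroma comparisons, the interaction and all counts of members called lower. Over all genes, calls on OP9 went from 921 higher and 389 lower to 1778 and 597 with the replicate block, 1502 and 577 with DESeq2, and 574 and 862 at the same total, and with 1 library left out were fewest without IkNull/OP9 replicate 2 (411 and 140). On OP9-DL1 they went from 1295 and 640 to 715 and 1591 at the same total, 2140 higher with the block and 786 and 306 with only the 2 groups. With the pair as block, stroma calls over all genes were 62 higher and 140 lower in IkWT cells and 70 and 31 in IkNull cells. Without globin genes in the total, Nr4a1 lost its call on OP9 (3.71, limma adjusted p = 0.0561) and Junb gained one. The causes were not tested. Depth limits Egr3 and, in IkWT cells, Egr2, where a library held few reads.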
